A study of Xenopus laevis with 9 samples.

Results

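The comparison described here set tail tissue of Xenopus laevis tadpoles after 48 h in the thyroid hormone 3,5,3'-triiodothyronine (T3) against tail tissue after 6 h in T3. It was made up of the 3 arrays titled as T3 at 48 h and the 3 titled as T3 at 6 h, 6 of the 9 arrays of the study, and of all 15491 probe sets that are not controls. A probe set is a group of short oligonucleotides on an Affymetrix array that together read 1 transcript. Larvae at stage 54, an early metamorphic stage (the labels also give the range 51 to 54), lived in pairs in 500 ml of FETAX medium at 20 C. The 48 h group and the 6 h group both received T3 at 20 nM. Another group received the vehicle and was collected after 48 h, and its 3 arrays are given for orientation. Every array carried RNA from 3 pooled tails. Whole larvae were exposed, so an action of T3 on the tail itself and one through other organs cannot be told apart. No vehicle tails from 6 h were analysed here, and the hormone's duration and the time in the container changed together between the groups, so the effects of both cannot be told apart.

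Thyroid hormone drives amphibian metamorphosis. T3 enters the nucleus and binds thyroid hormone receptors, which sit on DNA with retinoid X receptors and exchange corepressors for coactivators when the hormone is bound. The first genes to respond encode transcription factors and enzymes of hormone metabolism, and later genes encode the effectors of remodelling. In the tail these include matrix-degrading proteases, lysosomal hydrolases and factors that act in dying muscle, notochord and larval skin, and the organ is finally resorbed.

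The deposited values were intensities whose median was 1 on each array, and their log2 is called the level below, so that a level of 0 is the median probe set of an array. Differences are log2 levels of T3 48 h minus T3 6 h unless stated, so a difference of 1 is a 2-fold change. SE is the standard error of the difference in a limma fit. It pools the spread of all 9 arrays, vehicle included, and is drawn towards that of probe sets at similar levels. It can therefore be smaller than the spread of widely scattered T3 48 h arrays alone would give. A probe set was tested if its level was at least 0 on at least 3 of the 9 arrays, which 8123 probe sets met. Along the first principal component of the 6 T3 arrays, which carried 58.2% of their variance, the T3 48 h arrays scored 12.37, 31.8 and 24.9 and the T3 6 h arrays scored -24.6, -22.0 and -22.5. The groups were separate on this component, which leaves out the vehicle arrays. Array 1 of the T3 48 h group stood apart from arrays 2 and 3, nearer to the T3 6 h arrays. Across tested probe sets, however, T3 48 h array 1 correlated with vehicle arrays at 0.9716 to 0.9719. With T3 6 h arrays it did so at 0.957 to 0.965. T3 6 h array 2 correlated with vehicle array 3 at 0.986, and with its own group at 0.981 and 0.985. Of 72 probe sets of muscle contraction, the main tissue of a tail, 64 passed the filter. The difference between 3' and 5' probe sets of alpha 1 actin, a sign of RNA integrity, was between -0.01 and 0.19 on T3 48 h arrays and between 0.02 and 0.07 on T3 6 h arrays. For gapdh it was between 1.30 and 1.36 on T3 48 h arrays and between 1.18 and 1.48 on T3 6 h arrays, and for beta actin between -2.07 and -1.81 and between -1.91 and -1.71 in the same groups.

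At the threshold of an adjusted p under 0.05 in limma, 1578 of 8123 probe sets differed between T3 48 h and T3 6 h, which is 19.4% of those tested. Of these, 610 were higher and 968 lower at 48 h, or 7.51% and 11.9% of the tested probe sets. The calls included 397 changes of at least 2-fold, 177 higher and 220 lower, and 39 of at least 4-fold, 25 higher and 14 lower. The lower calls were thus the more numerous and the higher calls the more numerous among the largest changes. Those of at least 4-fold that were higher include slc15a2.L, ambp.L, anpep.L, krt78.6.L, dpp4.S and timp2.S, which passed the filter only through the T3 48 h arrays. A count without such probe sets was not made. The excess of lower calls depended on scaling, since higher calls made up 38.7% of all calls as deposited, 47.5% after quantile normalization and 50.2% after centring each array on the tested probe sets. The median difference over all tested probe sets was -0.06, and 42.9% of them had a positive difference. The T3 48 h and T3 6 h arrays did not overlap for 2989 tested probe sets (36.8%). Among the 1578 calls this held for 1562, so a lack of overlap adds little to a call. On leaving out 1 array the number of calls was lowest, 869, when T3 6 h array 1 was omitted, and highest, 2093, when T3 48 h array 1 was. It was 880 on omitting T3 6 h array 3 and 992 on omitting T3 48 h array 3, and 692 of the 1578 calls were kept in all 9 fits that left out an array. Of 57 counts of 1 to 5 called members in a gene list, 45 moved by over 1.5 times when some 1 array was left out, so such small counts describe these arrays. Among the named genes and list members called, 9 passed the filter only through the T3 48 h arrays, which were ambp.L, anpep.L, axin2.S, crym.S, cxcr4.L, dpp4.S, krt78.6.L, slc15a2.L and timp2.S. Another 4 passed only through the T3 6 h arrays, which were gclc.L, nefl.L, slc16a1.S and LOC100217319. Genes that pass in this way had to differ, and their calls carry no support for a list. In whole tissue, fewer cells of a type and less RNA per cell cannot be told apart.

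**Figure D1:**
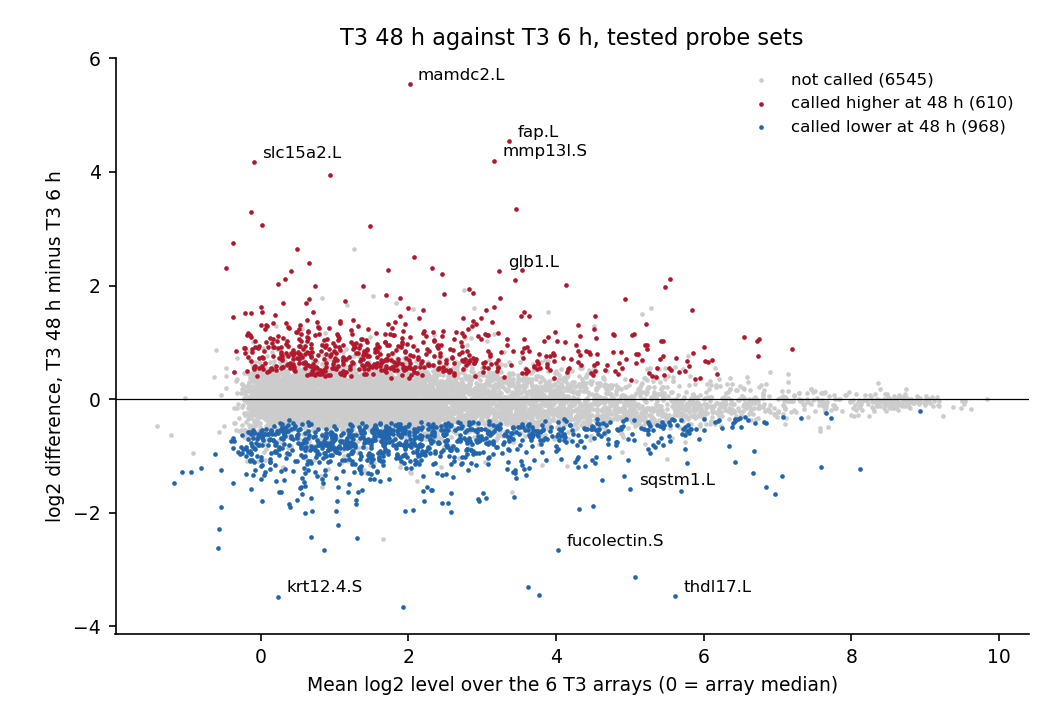
Each point is 1 of 8123 tested probe sets, with the mean log2 level over the 6 T3 arrays on the x axis and the log2 difference, T3 48 h minus T3 6 h, on the y axis. Red points (610) were called higher and blue points (968) lower at 48 h, and the largest differences, such as that of mamdc2.L at 5.55, lie among the higher calls.

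Genes on a list of T3 response genes were mostly higher at 48 h than at 6 h where they were called. Of the list's 29 probe sets, 10 passed the filter, and of those 5 were higher and 1 lower, 50% and 10% beside 7.51% and 11.9%. The higher ones were dio3.L, fap.L, mmp11.L and both homeologs of mmp13l, most of them proteases described further on, and the lower one was the keratin krt62.L. The median difference over the 10 was 1.11, against -0.06 over all tested probe sets. In a fit of all 15491 probe sets, which called 8.54% of them, a further 8 were higher and 1 lower, and these lay below the array median on most arrays, so their fold depends on the background correction. The gene thibz.L encodes a leucine zipper transcription factor induced by T3, and its levels were -0.14, 2.69 and 1.62 in T3 48 h tails, against -2.56, -2.79 and -2.51 in T3 6 h tails, with -2.63, -2.88 and -2.78 in vehicle tails. All T3 6 h arrays were within the range of the vehicle arrays or close to it, and the difference between the T3 groups was 4.01 (SE 0.54, adjusted p = 0.00368) in that fit. Its homeolog thibz.S had levels of -1.05, -0.21 and -0.63 in T3 48 h tails, against -1.70, -2.05 and -1.77 in T3 6 h tails, and differed by 1.22. The gene crhbp.S, which encodes a protein that binds corticotropin-releasing hormone, had levels of -0.21, 3.16 and 2.94 in T3 48 h tails, against -1.71, -2.16 and -2.0 in T3 6 h tails, with -1.70, -1.69 and -2.09 in vehicle. Array 1 of the T3 48 h group was the low one by more than 3 log2 units, and the groups did not overlap (difference 3.92, SE 0.72, adjusted p = 0.012). For nfix.L, a transcription factor of the nuclear factor I family, the same array was instead the high one, at 0.73, -0.94 and -0.71 in T3 48 h tails, against -2.41, -2.74 and -2.65 in T3 6 h tails, a difference of 2.29 (SE 0.41, adjusted p = 0.0109). Smaller differences of 1.07, 1.04 and 0.64 were called for the transcription factor sox4.L, the corepressor rcor2.L and a probe set of hhip.L, a Hedgehog-binding protein. The ligand gene shh.L fell by 0.78.

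Of 7 tested probe sets of thyroid hormone transport and metabolism 3 were higher and 1 lower at 48 h, beside a background of 7.51% and 11.9%. Among the higher calls, crym.S passed the filter only through the T3 48 h arrays. Under a filter on the mean level the list had 2 higher calls and 1 lower. The gene dio3.L encodes the deiodinase that inactivates T3, and its levels were 3.76, 4.47 and 4.85 in T3 48 h tails, against 3.18, 2.56 and 2.95 in T3 6 h tails, with 1.81, 1.78 and 1.29 in vehicle tails. The 3 groups did not overlap, and T3 6 h lay between the others. The difference between T3 48 h and T3 6 h was 1.46 (SE 0.27, adjusted p = 0.00607), or 2.76-fold. A probe set of dio2.L, the deiodinase that makes T3 from thyroxine, had levels of -1.49, 0.28 and -0.51 in T3 48 h tails, against -2.29, -2.32 and -2.29 in T3 6 h tails, and was called with a difference of 1.72 in the fit of all probe sets, while a second probe set of the gene was not called. The T3-binding protein crym.S had levels of 0.79, 0.84 and 0.35 in T3 48 h tails, against -0.40, -1.12 and -0.41 in T3 6 h tails, a difference of 1.30 (SE 0.23, adjusted p = 0.00454). The homeologs of slc3a2, the heavy chain of amino acid and thyroid hormone transporters, went opposite ways, slc3a2.S by 0.64 and slc3a2.L by -0.43, and slc3a2.S kept its call in 1 of the 9 fits that left out an array. The receptor gene thra.L, below the filter, differed by 0.01 (adjusted p = 0.966), and klf9.L, an early response transcription factor, by -0.06 (adjusted p = 0.876). For klf9.L the levels were -0.83, -0.02 and -0.34 in T3 48 h tails, against -0.04, -0.54 and -0.45 in T3 6 h tails, with -0.95, -0.65 and -0.91 in vehicle tails.

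Of 21 tested probe sets of nuclear receptors and their coregulators, 7 were higher and 1 lower, beside a background of 7.51% and 11.9%, and the median difference was 0.17. The retinoic acid receptor rara.L had levels of 0.75, 1.49 and 1.33 in T3 48 h tails, against -0.16, -0.25 and 0.04 in T3 6 h tails, a difference of 1.31 (SE 0.23, adjusted p = 0.00439). The coactivator ncoa3.S rose by 0.91 and the corepressor ncor1.S by 0.76, and histone deacetylases hdac1 and hdac2 were among the other higher calls. The fatty acid receptor ppara.S fell by 0.75, with vehicle levels of 0.82, 0.58 and 1.0 close to those of T3 48 h, 0.99, 0.70 and 0.87, and below those of T3 6 h, 1.80, 1.30 and 1.70. The count of higher calls was 4 on omitting T3 48 h array 2 or T3 6 h array 3.

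Matrix-degrading enzymes were the group with the highest share of higher calls among lists with at least 10 tested probe sets. Of 18 tested probe sets, 11 were higher in limma and none lower, with 1 lower at an unadjusted p under 0.05. The share was 61.1%, beside 7.51% of all tested probe sets, and the median difference was 1.17. The called genes anpep.L and dpp4.S passed the filter only through the T3 48 h arrays, and under a filter on the mean level the list had 9 higher calls and a median of 1.01. The count stayed between 10 and 12 when any 1 array was left out. The gene fap.L encodes a membrane serine peptidase of fibroblasts, and its levels were 5.02, 6.19 and 5.68 in T3 48 h tails, against 1.19, 0.75 and 1.34 in T3 6 h tails, with 0.72, 0.84 and 0.79 in vehicle tails. It was higher by 4.54 (SE 0.26, adjusted p = 4.76e-05), 23.3-fold, with no overlap. Of the collagenase homeologs, mmp13l.S had levels of 4.44, 5.84 and 5.51 in T3 48 h tails, against 0.77, 0.80 and 1.63 in T3 6 h tails, and rose 18.4-fold (log2 4.2, SE 0.40, adjusted p = 0.000368). Its partner mmp13l.L had 1.88, 3.28 and 2.65 in T3 48 h tails, against 0.82, 0.69 and 0.82 in T3 6 h tails, and rose 3.55-fold. Stromelysin 3, mmp11.L, had levels of 2.81, 3.50 and 3.68 in T3 48 h tails, against 1.17, 0.61 and 0.70 in T3 6 h tails, a difference of 2.50 (SE 0.25, adjusted p = 0.000456). The aminopeptidase anpep.L stood at 2.02, 0.84 and 1.66 in T3 48 h tails, against -1.90, -1.83 and -1.63 in T3 6 h tails, where it was below the array median on every array. The dipeptidyl peptidase dpp4.S had 1.15, 1.42 and 2.04 in T3 48 h tails, against -0.41, -1.39 and -0.36 in T3 6 h tails, a difference of 2.26 (SE 0.33, adjusted p = 0.00229). The other higher calls were mmp14.L, mmp2.S, hyal2.L, hyal2.S and plat.L, a membrane-bound metalloproteinase, a gelatinase, a hyaluronidase and tissue plasminogen activator, at differences between 0.82 for plat.L and 1.47 for mmp14.L. Among the uncalled members, mmp1.S had the most negative difference, -1.64 with an adjusted p of 0.0668.

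**Figure D2:**
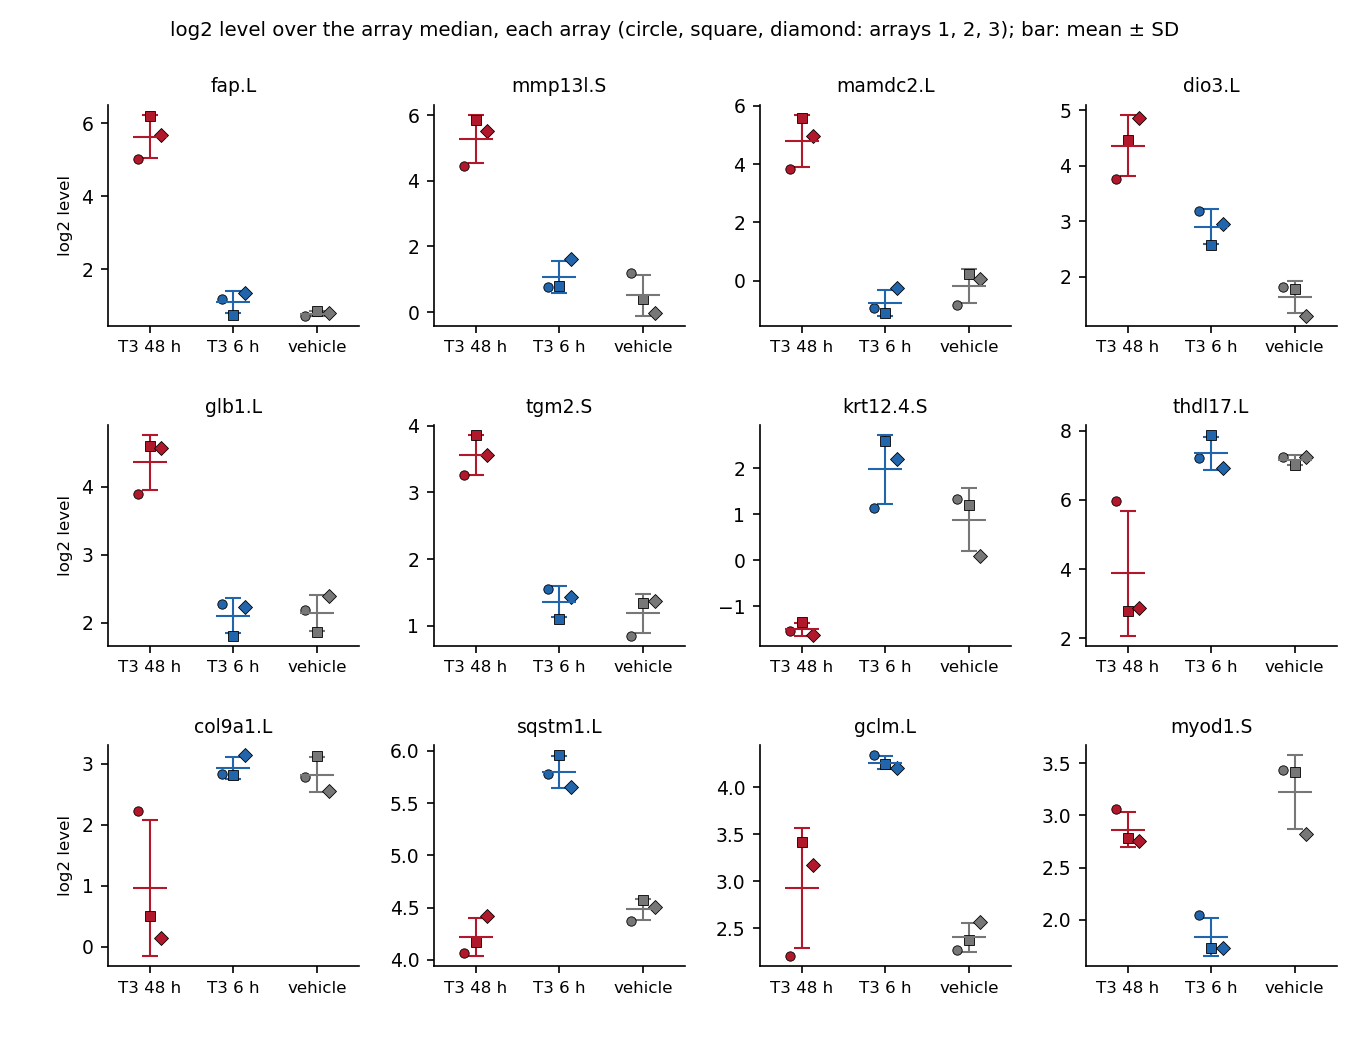
The log2 level over the array median is plotted for 12 genes, with 1 marker per array and the group mean ± SD (n = 3 arrays each) for T3 48 h (red), T3 6 h (blue) and vehicle (grey). In the fap.L, mmp13l.S, mamdc2.L, glb1.L and tgm2.S panels the T3 6 h and vehicle arrays lie together below T3 48 h, while in the sqstm1.L panel T3 48 h and vehicle lie together below T3 6 h.

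Protease inhibitors were mixed, with 4 of 12 tested probe sets higher and 2 lower, shares of 33.3% and 16.7% beside 7.51% and 11.9%. Among the higher calls, timp2.S passed the filter only through the T3 48 h arrays. Under a filter on the mean level 3 were higher and 2 lower. Both homeologs of timp2, an inhibitor of metalloproteinases, rose. Levels of timp2.L were 5.46, 6.11 and 5.87 in T3 48 h tails, against 3.85, 4.13 and 4.19 in T3 6 h tails (difference 1.76, SE 0.18, adjusted p = 0.000456), and those of timp2.S were 0.86, 2.03 and 1.24 in T3 48 h tails, against -0.68, -0.77 and -0.76 in T3 6 h tails (difference 2.11, SE 0.26, adjusted p = 0.00108). For a second inhibitor, timp3.L, 1 probe set differed by -0.74 and was called, while the other differed by 0.03 and was not. The collagen chaperone serpinh1.S rose by 1.12 (adjusted p = 0.0464) and kept its call in 1 of the 9 fits that left out an array. The list's count of higher calls was 2 on omitting T3 48 h array 3, T3 6 h array 1 or T3 6 h array 3.

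Several structural matrix genes also rose. Of 27 tested probe sets of fibrillar and basement membrane matrix, 6 from 4 genes were higher in limma, a share of 22.2% beside 7.51%. None was lower, with 1 lower at an unadjusted p under 0.05, and the median difference was 0.16. Against vehicle at 48 h, 3 were higher and 2 lower, with a median of -0.15. Fibronectin, fn1.S, had levels of 5.32, 5.46 and 5.25 in T3 48 h tails, against 3.90, 4.31 and 4.46 in T3 6 h tails, with 4.73, 4.74 and 4.76 in vehicle tails, a difference between the T3 groups of 1.12 (SE 0.15, adjusted p = 0.00138). Of its 3 other probe sets 2 were called, also higher. Collagen VI, col6a1.L, had 5.52, 5.19 and 5.18 in T3 48 h tails, against 4.48, 4.78 and 4.53 in T3 6 h tails, and sparc.L, a collagen-binding glycoprotein, had 6.36, 6.40 and 6.40 in T3 48 h tails, against 5.52, 6.03 and 5.66 in T3 6 h tails. They differed by 0.70 and 0.66, and the basement membrane link protein nid2.L by 0.61. For col6a1.L and sparc.L, vehicle tails, at 5.17, 5.16 and 5.0 and at 6.19, 6.29 and 6.03, were nearer to T3 48 h than to T3 6 h.

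Of 17 tested proteoglycan probe sets, 4 were higher and 2 lower, 23.5% and 11.8% beside 7.51% and 11.9%. The most strongly raised gene of all those with a single symbol was mamdc2.L, a secreted proteoglycan, with levels of 3.83, 5.58 and 4.97 in T3 48 h tails, against -0.92, -1.09 and -0.26 in T3 6 h tails and -0.84, 0.25 and 0.08 in vehicle tails. It rose by 5.55 (SE 0.43, adjusted p = 0.000208), 46.9-fold, measured from T3 6 h levels below the array median. Biglycan, bgn.L, which binds collagen fibrils, had levels of 6.26, 7.05 and 6.50 in T3 48 h tails, against 4.67, 4.48 and 4.31 in T3 6 h tails, a difference of 2.12 (SE 0.19, adjusted p = 0.000273). Brevican, bcan.L, a proteoglycan of nervous tissue matrix, fell by 1.22 (SE 0.28, adjusted p = 0.0146). The count of higher proteoglycans was 2 on omitting T3 48 h array 2 or T3 6 h array 1.

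Notochord and cartilage genes went the other way. Of 6 tested probe sets 4 were lower, beside 11.9% of all tested probe sets, and 1 was higher. A collagen IX gene, col9a1.L, had levels of 2.24, 0.51 and 0.15 in T3 48 h tails, against 2.84, 2.82 and 3.14 in T3 6 h tails, with 2.79, 3.13 and 2.56 in vehicle tails. Array 1 of the T3 48 h group was within a log2 unit of the T3 6 h arrays and the other T3 48 h arrays were lower, and the difference was -1.96 (SE 0.43, adjusted p = 0.0123). Collagen II, col2a1.S, showed the same order at 2.66, 0.71 and 1.24 in T3 48 h tails, against 3.34, 3.70 and 3.05 in T3 6 h tails (difference -1.83, SE 0.41, adjusted p = 0.0134). Chondromodulin, cnmd.L, an inhibitor of vessel growth in cartilage, had 2.90, 1.74 and 1.89 in T3 48 h tails, against 4.12, 3.87 and 3.77 in T3 6 h tails, and col9a1-b fell by 1.67. Matrilin 4, matn4.L, was the higher member at 1.29. Below the filter, shh.L, made in the notochord and floor plate, and col9a2.L were lower, with differences of -0.78 and -1.30, and tbxt.S, a notochord transcription factor, differed by -0.06 and was not called. The summed level of all 11 probe sets was 24.5, 11.9 and 12.1 times the array median on the T3 48 h arrays, against 41.3, 41.7 and 36.8 on the T3 6 h arrays and 38, 41.9 and 27 on vehicle arrays.

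Many epidermal and keratin genes were lower. Of 47 tested probe sets, 20 were lower and 1 higher, shares of 42.6% and 2.13% beside 11.9% and 7.51% of all tested probe sets. A negative difference was found for 43 of the 47, with a median of -0.72, while 42.9% of all tested probe sets had a positive one. The count of lower probe sets stayed between 15 and 21 with any 1 array left out. Of the 21 called probe sets, 17 had a vehicle mean nearer to T3 6 h than to T3 48 h, as had 69.6% of all called probe sets. Among keratins, krt12.4.S had levels of -1.53, -1.35 and -1.63 in T3 48 h tails, against 1.14, 2.58 and 2.19 in T3 6 h tails, with 1.33, 1.20 and 0.09 in vehicle tails, and was 11.1-fold lower (log2 -3.47, SE 0.38, adjusted p = 0.000633). Its homeolog krt12.4.L had -1.87, -2.0 and -1.80 in T3 48 h tails, against 0.62, 0.97 and 0.62 in T3 6 h tails, 6.18-fold lower. Both were below the array median on all 3 T3 48 h arrays, so the sizes of those folds depend on the background correction. The abundant keratin krt62.L had levels of 6.96, 5.97 and 6.23 in T3 48 h tails, against 7.67, 7.85 and 7.71 in T3 6 h tails, and fell by 1.36 (SE 0.20, adjusted p = 0.00235). The larval epidermal genes thdl17.L and thdl18.S fell more. Levels of thdl17.L were 5.97, 2.79 and 2.88 in T3 48 h tails, against 7.22, 7.87 and 6.93 in T3 6 h tails and 7.25, 7.0 and 7.23 in vehicle tails, a difference of -3.46 (SE 0.68, adjusted p = 0.00755). Those of thdl18.S were 5.62, 2.43 and 2.49 in T3 48 h tails, against 6.55, 7.23 and 6.14 in T3 6 h tails, a difference of -3.12 (SE 0.69, adjusted p = 0.0128). In both, array 1 of the T3 48 h group lay about 3 log2 units above the other T3 48 h arrays and still below every T3 6 h array. Cell junction genes among the lower calls included cdh3.L and cdh1.S, cadherins, at -1.07 and -0.96, and the desmosomal genes dsp.S, evpl.L and pkp3.S at -0.94, -1.05 and -0.93. These 5 junction genes were picked with their values in view. The keratin krt78.6.L was the higher call, with 1.95, 2.12 and 0.57 in T3 48 h tails, against -1.06, -1.97 and -1.53 in T3 6 h tails, a difference of 3.07 (SE 0.39, adjusted p = 0.00121). It passed the filter only through the T3 48 h arrays. Under a filter on the mean level the list had 20 lower calls and none higher. The summed level of all 59 epidermal probe sets was 1061, 731 and 853 times the array median on T3 48 h arrays, against 1571, 1779 and 1524 on T3 6 h arrays and 1543, 1402 and 1511 on vehicle arrays, so the T3 48 h arrays lay below all the others.

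Other genes with large changes belong to several classes. The peptide transporter slc15a2.L had levels of 2.69, 1.40 and 1.87 in T3 48 h tails, against -2.19, -2.20 and -2.17 in T3 6 h tails, all below the array median, and differed by 4.18 (SE 0.27, adjusted p = 4.84e-05). The annexin anxa1.3.S had 4.54, 5.92 and 4.93 in T3 48 h tails, against 1.61, 2.58 and 1.18 in T3 6 h tails, and was 10.1-fold higher. Transglutaminase tgm2.S, which cross-links proteins, had 3.26, 3.86 and 3.56 in T3 48 h tails, against 1.55, 1.1 and 1.43 in T3 6 h tails, with 0.85, 1.34 and 1.37 in vehicle tails, and rose by 2.20 (SE 0.20, adjusted p = 0.000279). Among lower genes, fucolectin.S, a fucose-binding lectin, had 3.60, 2.25 and 2.25 in T3 48 h tails, against 4.97, 5.86 and 5.24 in T3 6 h tails, and was 6.31-fold lower. The otogelin-like gene otogl2.L fell by 2.65, and of its 2 other tested probe sets 1 was called, in the same direction. The flippase subunit tmem30b.L fell by 2.01. The gene mcrip2.S had 0.45, -0.12 and -0.10 in T3 48 h tails, against 2.92, 2.02 and 2.61 in T3 6 h tails, a difference of -2.44 (SE 0.35, adjusted p = 0.0019). The genes LOC398308 and LOC100126633, which carry no descriptive symbol, were lower, with differences of -3.67 and -3.45, and the T3 48 h arrays of LOC100126633 ranged widely, at 4.10, 0.34 and 1.68, against 5.50, 6.19 and 4.78 on T3 6 h arrays.

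Of the 44 gene lists, that of ribosome biogenesis had the largest share of lower calls. Ribosome biogenesis takes place in the nucleolus, where ribosomal RNA is transcribed by RNA polymerase I, modified and assembled with proteins. Of 80 tested probe sets, 56 from 46 genes were lower at 48 h than at 6 h, a share of 70.0% beside 11.9%, and none was higher in limma at an adjusted or an unadjusted p under 0.05. The median difference was -0.73, and 77 of 80 had a negative difference, with a range of -1.40 to 0.33. Of all tested probe sets 42.9% had a positive one. The number of lower probe sets stayed between 38 and 57 with any 1 array left out and was 52 after quantile normalization and 51 after centring. The median level over the 80 probe sets was 1.67, 1.27 and 1.54 on T3 48 h arrays, against 2.25, 2.16 and 2.34 on T3 6 h arrays and 2.01, 1.87 and 2.02 on vehicle arrays. The vehicle arrays thus lay between the T3 groups. Of the 56 called probe sets 42 had a vehicle mean nearer to T3 6 h, beside 653 of all 968 lower calls (67.5%), so this was no trait of the list alone.

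The gene rrp9.S, a protein of the small nucleolar particle that processes pre-ribosomal RNA, had levels of 1.24, 0.88 and 0.99 in T3 48 h tails, against 2.36, 2.15 and 2.80 in T3 6 h tails, with 1.81, 1.95 and 1.86 in vehicle tails (difference -1.40, SE 0.17, adjusted p = 0.00114). A processing factor, rrp1b.L, had 1.20, 0.79 and 0.83 in T3 48 h tails, against 2.43, 1.83 and 2.33 in T3 6 h tails (difference -1.26, SE 0.18, adjusted p = 0.00204). The methylation guide protein nop58.S had 4.07, 3.30 and 3.73 in T3 48 h tails, against 4.84, 4.74 and 5.09 in T3 6 h tails (difference -1.19, SE 0.19, adjusted p = 0.0035), and nucleostemin, gnl3.L, had 3.28, 2.83 and 2.75 in T3 48 h tails, against 4.08, 3.92 and 4.36 in T3 6 h tails (difference -1.17, SE 0.17, adjusted p = 0.00217). No array of either group crossed into the other in these 4 genes, as in 1562 of all 1578 calls. The abundant nucleolar proteins npm1, ncl and ubtf were not called, with differences of -0.17 for npm1.L, -0.15 for ncl.S and -0.23 for ubtf.S.

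Ribosomal protein genes, the parts that are assembled, gave no calls. Of 83 tested probe sets none was called either way in limma with all 9 arrays, 3 were lower and none higher at an unadjusted p under 0.05, the median difference was -0.05 (0.02 after quantile normalization) and the range was -0.43 to 0.10. Up to 5 were called lower when 1 array was left out. Their median level was 8.46, 8.33 and 8.43 on T3 48 h arrays, against 8.45, 8.49 and 8.47 on T3 6 h arrays, with all arrays close together. Of 60 tested probe sets of translation factors and tRNA synthetases, 5 were lower and 1 higher. These shares of 8.33% and 1.67% lay below the background of 11.9% and 7.51%. Among the lower ones were the termination factor gspt1.L at -0.82 and farsb.L, a subunit of phenylalanyl-tRNA synthetase, at -0.78. Another was eif6.S, a factor of the large ribosomal subunit, at -0.69. The count of lower probe sets was 9 on omitting T3 48 h array 1 and 1 on omitting T3 6 h array 3. It was 2 on omitting T3 48 h array 2, T3 48 h array 3 or T3 6 h array 1.

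**Figure D3:**
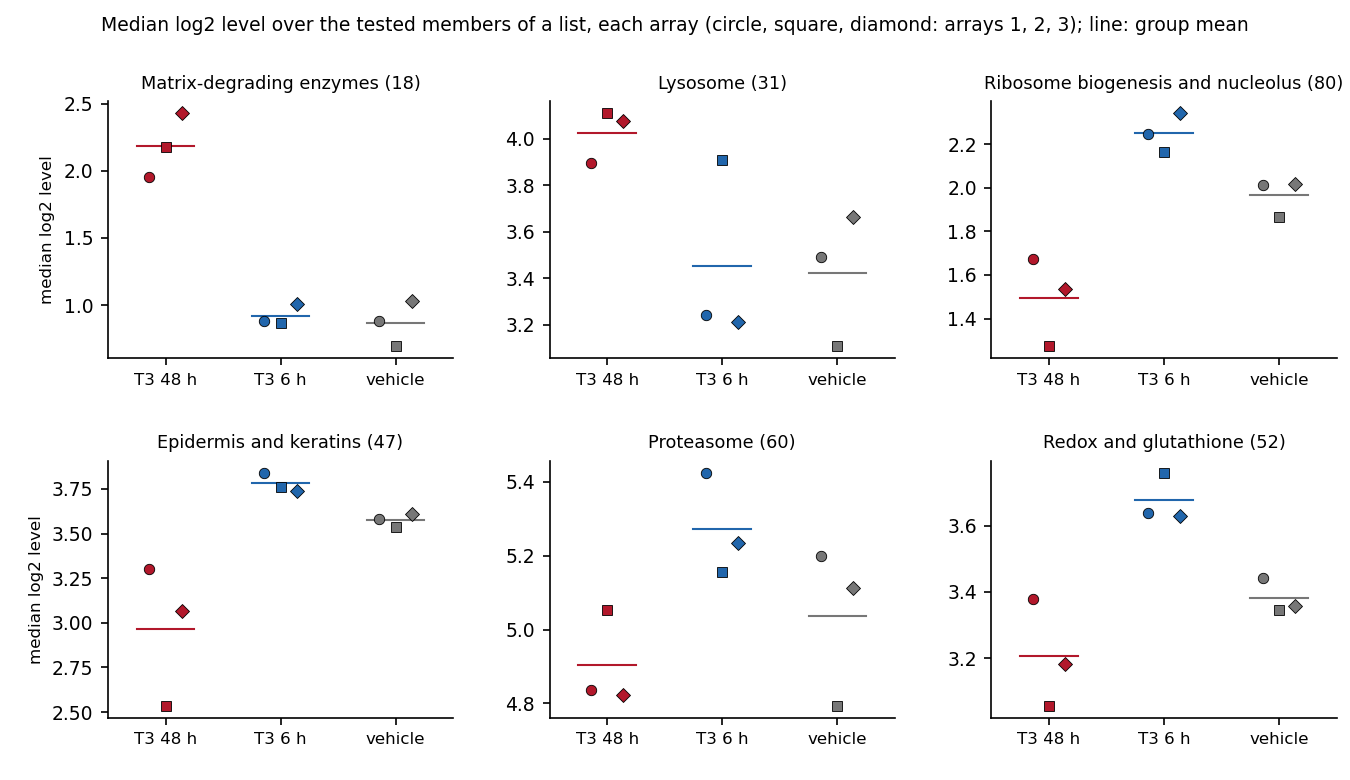
The median log2 level over the tested probe sets of 6 gene lists is plotted per array for T3 48 h (red), T3 6 h (blue) and vehicle (grey), with a line at the mean of the 3 arrays. T3 48 h arrays lie above all others for matrix-degrading enzymes (1.95 to 2.43) and below all others for ribosome biogenesis (1.27 to 1.67) and for epidermis (2.53 to 3.30), while for the lysosome T3 6 h array 2 reached the T3 48 h arrays.

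Protein turnover genes moved in different directions. Of 60 tested proteasome probe sets 12 were lower and none higher in limma, with 1 higher at an unadjusted p under 0.05. The lower calls were a share of 20.0% beside 11.9%. A negative difference was found for 58 of 60, with a median of -0.35, while 42.9% of all tested probe sets had a positive one. The count of lower probe sets was 6 of 60 after quantile normalization, beside 782 of all 8123 tested probe sets. It was 7 after centring, beside 749 of all tested. After either scaling the list's share thus lay near the background. The count was 7 on omitting T3 48 h array 1 or T3 6 h array 3, 4 on omitting T3 48 h array 3 and 2 on omitting T3 6 h array 1. The assembly chaperone psmg1.L had levels of 2.26, 2.77 and 2.73 in T3 48 h tails, against 3.55, 3.49 and 3.75 in T3 6 h tails, with 2.79, 3.06 and 2.86 in vehicle tails (difference -1.01, SE 0.16, adjusted p = 0.00351). The regulatory subunit psmd10.L had 1.07, 0.49 and 0.43 in T3 48 h tails, against 1.79, 1.70 and 1.93 in T3 6 h tails (difference -1.14, SE 0.17, adjusted p = 0.00245), and the ubiquitin receptor adrm1.L differed by -1.06. The immunoproteasome subunit psmb9.S fell by 0.81.

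Lysosomal genes rose in a few cases. Of 31 tested probe sets 4 were higher in limma, a share of 12.9% beside 7.51%, and none lower, with 2 lower at an unadjusted p under 0.05, and the median difference was 0.21. The galactosidase glb1.L had levels of 3.89, 4.61 and 4.57 in T3 48 h tails, against 2.27, 1.81 and 2.24 in T3 6 h tails, with 2.18, 1.87 and 2.39 in vehicle tails, and rose 4.77-fold (log2 2.25, SE 0.22, adjusted p = 0.000449). Cathepsin B, ctsb.S, had 6.74, 7.46 and 7.13 in T3 48 h tails, against 6.30, 6.36 and 6.41 in T3 6 h tails, a difference of 0.75 (SE 0.16, adjusted p = 0.0106). Protective protein ctsa.L and the transcription factor tfe3.S, a regulator of lysosomal genes, differed by 0.83 and 0.57. The count of 4 was 10 on omitting T3 48 h array 1 and 2 on omitting T3 6 h array 3. Of 25 tested probe sets of the vacuolar proton pump, 1 was called higher, atp6v1b2.S at 0.47, a share of 4% beside 7.51%. A positive difference was found for 24, with a median of 0.33, beside 42.9% of all tested probe sets. The count was 4 after quantile normalization or centring, and it was 7 on omitting T3 48 h array 1, 2 on omitting T3 48 h array 2, 0 on omitting T3 48 h array 3, T3 6 h array 1 or T3 6 h array 3 and 3 on omitting vehicle array 3. The other tested probe set of atp6v1b2.S was not called. Among 22 tested autophagy probe sets 3 were higher and 2 lower, 13.6% and 9.09% beside 7.51% and 11.9%. A probe set of atg16l1.L, needed to form autophagosomes, had 3.82, 5.11 and 4.54 in T3 48 h tails, against 2.48, 2.23 and 2.46 in T3 6 h tails, a difference of 2.10 (SE 0.28, adjusted p = 0.00154), while of the 3 other tested probe sets of that gene 1 was called, at a difference of 0.46. The autophagosome protein gabarapl1.S rose by 1.09. The receptor sqstm1.L, which brings ubiquitinated cargo to autophagosomes, had 4.06, 4.18 and 4.42 in T3 48 h tails, against 5.78, 5.96 and 5.65 in T3 6 h tails, with 4.38, 4.57 and 4.51 in vehicle tails, and fell by 1.58 (SE 0.13, adjusted p = 0.000229). Here the T3 6 h arrays stood above both groups collected at 48 h, and atg5.L, which fell by 0.57, had vehicle levels of 1.13, 0.80 and 1.26 that overlapped those of T3 48 h, 0.97, 1.33 and 0.96.

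Of 73 tested probe sets of folding in the endoplasmic reticulum, 8 were higher and 1 lower, with a median difference of 0.14. The disulfide isomerase pdia4.L had levels of 2.29, 2.43 and 2.34 in T3 48 h tails, against 1.55, 1.64 and 1.79 in T3 6 h tails (difference 0.69, SE 0.12, adjusted p = 0.00497), and the lectin chaperones canx.L and calr.L differed by 0.61 and 0.59. The share of 11% higher lies near the background of 7.51%, and the count was 13 on omitting T3 48 h array 1, 4 on omitting T3 48 h array 2, T3 6 h array 3 or vehicle array 1, 2 on omitting T3 48 h array 3, 1 on omitting T3 6 h array 1 and 5 on omitting T3 6 h array 2, vehicle array 2 or vehicle array 3. Of 49 probe sets of cytosolic and mitochondrial chaperones 4 were lower and 1 higher, 8.16% and 2.04% beside 11.9% and 7.51%, and the lower count was 8 on omitting T3 48 h array 1 and 2 on omitting T3 48 h array 2, T3 6 h array 1 or T3 6 h array 3. The mitochondrial chaperonin hspe1.L had 1.92, 1.85 and 1.99 in T3 48 h tails, against 2.83, 3.07 and 2.87 in T3 6 h tails, with 2.29, 1.98 and 2.67 in vehicle tails, a difference of -1.0 (SE 0.17, adjusted p = 0.00424).

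Redox genes were lower at 48 h than at 6 h in 13 of 52 tested probe sets and higher in 1, shares of 25% and 1.92% beside 11.9% and 7.51% of all tested probe sets, with a median difference of -0.28. Glutathione is the main thiol that protects cells from oxidants, gclm.L and gclc.L encode the enzyme that starts its synthesis, and metallothioneins bind metals. Levels of gclm.L were 2.21, 3.42 and 3.17 in T3 48 h tails, against 4.34, 4.24 and 4.2 in T3 6 h tails, with 2.27, 2.38 and 2.57 in vehicle tails, so the T3 6 h arrays were above all the others, and the difference between the T3 groups was -1.33 (SE 0.26, adjusted p = 0.00735). Its partner gclc.L, which passed the filter only through the T3 6 h arrays, fell by 0.80. Under a filter on the mean level the list had 12 lower calls and 1 higher. The glutathione transferase gstp1.L had -0.67, -0.99 and 0.03 in T3 48 h tails, against 1.75, 2.27 and 1.66 in T3 6 h tails and 1.40, 0.73 and 0.94 in vehicle tails, and was 5.4-fold lower (log2 -2.43, SE 0.27, adjusted p = 0.000743). Levels of a probe set of mt4.L were 1.81, 1.41 and 1.31 in T3 48 h tails, against 2.59, 3.68 and 3.04 in T3 6 h tails, a difference of -1.59 (SE 0.27, adjusted p = 0.00415). The transferase gsta1.S fell by 1.01. The count of lower probe sets was 7 on omitting T3 48 h array 2 or T3 6 h array 3 and 6 on omitting T3 48 h array 3. It was 9 after quantile normalization and 9 after centring. Of the called probe sets, 7 had a vehicle mean nearer to T3 6 h and 7 nearer to T3 48 h, while 69.6% of all calls had it nearer to T3 6 h. Against vehicle at 48 h, 4 of the list were lower.

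Called genes of oxidative phosphorylation differed by small amounts. Of 66 tested probe sets 13 were lower in limma, 19.7% beside 11.9%, and none higher at an adjusted or an unadjusted p under 0.05. A negative difference was found for 64, with a median of -0.26 and a lowest value of -0.56. Of all tested probe sets 42.9% had a positive one. The cytochrome oxidase subunit cox6a1.S had levels of 5.66, 5.26 and 5.58 in T3 48 h tails, against 6.11, 5.96 and 6.11 in T3 6 h tails (difference -0.56, SE 0.13, adjusted p = 0.0153). The complex I subunits ndufab1.L and ndufs4.S differed by -0.54 and -0.53, and the oxidase subunit cox4i2.S by -0.55. The count was 5 of 66 after quantile normalization, beside 782 of all 8123 tested probe sets. It was 6 after centring, beside 749 of all tested. After either scaling the list's share thus did not exceed the background. The count was 5 on omitting T3 48 h array 2, 2 on omitting T3 48 h array 3 or T3 6 h array 3 and 1 on omitting T3 6 h array 1. Of 28 tested probe sets of the tricarboxylic acid cycle, 1 was higher, sucla2.S at 0.57, and 1 lower, idh3a.S at -0.62. Each was 3.57% of the list, below the background.

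Carbohydrate enzymes changed in single genes. Of 55 tested probe sets of glycolysis and gluconeogenesis 3 were higher and 4 lower. These shares of 5.45% and 7.27% lay below the background of 7.51% and 11.9%. The hexokinase hk1.L had levels of 0.29, -0.21 and -0.27 in T3 48 h tails, against 2.77, 1.65 and 2.04 in T3 6 h tails, with 1.04, 1.36 and 1.16 in vehicle tails, and was 4.64-fold lower (log2 -2.21, SE 0.26, adjusted p = 0.000958). The gluconeogenic enzyme pck1.L had 4.49, 2.97 and 3.91 in T3 48 h tails, against 1.38, 2.19 and 1.97 in T3 6 h tails, with 1.69, 2.55 and 2.04 in vehicle tails, a difference of 1.95 (SE 0.37, adjusted p = 0.00642). The regulator of glycolysis pfkfb4.S rose by 1.05. The lactate transporter slc16a1.S, which passed the filter only through the T3 6 h arrays, fell by 1.07. Among lipid genes, 2 of 25 tested probe sets were higher and 1 lower, 8% and 4% beside 7.51% and 11.9%. The apolipoprotein apoe.L rose by 0.67 and 1 of 2 probe sets of scd.S, a fatty acid desaturase, by 0.70. The gene hmgcs1.L, of sterol synthesis, fell by 0.81.

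Enzymes of the urea cycle and of amino acids were higher in 9 of 40 tested probe sets and lower in 3. These were shares of 22.5% and 7.5% beside 7.51% and 11.9%, while the median difference was -0.08 (0.01 after quantile normalization). Against vehicle at 48 h, 2 were higher and 3 lower. Of the called probe sets, 6 had a vehicle mean nearer to T3 6 h and 6 nearer to T3 48 h. Arginase, arg1.L, the last enzyme of the urea cycle, had levels of 3.34, 4.15 and 4.03 in T3 48 h tails, against 2.01, 2.88 and 1.89 in T3 6 h tails, with 1.94, 1.97 and 2.47 in vehicle tails, a difference of 1.57 (SE 0.29, adjusted p = 0.00604). A probe set of the mitochondrial arginase arg2.S differed by 1.02, and another, at 1.08, was not called. The methyltransferase bhmt.L, which makes methionine from homocysteine, had 7.78, 7.05 and 6.90 in T3 48 h tails, against 6.41, 6.37 and 5.87 in T3 6 h tails, with 7.33, 7.25 and 6.97 in vehicle tails, and glutamine synthetase, glul.L, had 5.56, 6.23 and 6.02 in T3 48 h tails, against 4.59, 5.39 and 4.77 in T3 6 h tails, with 5.74, 5.57 and 5.95 in vehicle tails. In these last genes vehicle lay with T3 48 h, and the differences between the T3 groups were 1.03 and 1.01. Proline dehydrogenase, prodh.L, had -0.06, -1.04 and -0.53 in T3 48 h tails, against 1.44, 1.43 and 1.07 in T3 6 h tails, a difference of -1.85 (SE 0.26, adjusted p = 0.00195). The count of higher probe sets was 4 on omitting T3 6 h array 3.

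Muscle makes up much of the tail, and few of its contractile genes were called. Of 64 tested probe sets of contraction and calcium handling 1 was higher and 3 lower, below the background in both directions, with a median difference of -0.06. The summed level of all 72 probe sets ran from 8626 to 10179.5 times the array median on T3 48 h arrays, against 9331 to 10563 on T3 6 h arrays, with overlap. The called genes were csrp3.L, a protein of the muscle Z disc, at -0.92, tnnc1.S, a troponin, at -0.43, 1 of 3 probe sets of myl1.L, a myosin light chain, at -0.33 and cacng1.L, a calcium channel subunit, at 0.83. Of 15 tested myogenic regulator probe sets 2 were higher, 13.3% beside 7.51%. The muscle transcription factor myod1.S had levels of 3.06, 2.78 and 2.75 in T3 48 h tails, against 2.05, 1.73 and 1.74 in T3 6 h tails, with 3.44, 3.41 and 2.82 in vehicle tails, a difference of 1.02 (SE 0.19, adjusted p = 0.00579). Here T3 6 h was the low group, and the vehicle arrays overlapped those of T3 48 h. The inhibitor of myogenic factors id2.L rose by 0.96. Of 11 probe sets of ligases and regulators active in muscle atrophy 2 were higher and 1 lower, 18.2% and 9.09% beside 7.51% and 11.9%. Among them were sesn1.L, a sestrin, at 0.50 and capn1.L, a calpain, at -0.52.

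Markers of other cell types in the tail were called in small numbers. Of 29 tested neural probe sets 2 were higher and 4 lower, 6.9% and 13.8% beside a background of 7.51% and 11.9%. The growth cone protein gap43.S had levels of 2.0, 2.68 and 2.48 in T3 48 h tails, against 0.17, 0.47 and 0.53 in T3 6 h tails, with 1.07, 0.99 and 0.87 in vehicle tails, and rose by 1.99 (SE 0.18, adjusted p = 0.000273), while the synaptic genes syt1.L and vamp2.L were lower, with differences of -1.07 and -0.95. All 52 neural probe sets summed to 192 to 212 times the array median on T3 48 h arrays, against 191 to 235 on T3 6 h arrays. Of 8 vascular probe sets cldn5.S and egfl7.S, of endothelial junctions and vessel wall, were higher by 0.88 and 0.55, a share of 25% beside 7.51%. The count was 0 on omitting T3 6 h array 1 or T3 48 h array 2. Of 6 pigment cell probe sets gpnmb.L and pts.L, a melanosomal glycoprotein and an enzyme of pteridine synthesis, were higher by 0.66 and 0.84, a share of 33.3%. These pigment cell genes kept their calls in 1 and 2 of the 9 fits that left out an array. The 13 pigment cell probe sets summed to 45.3 to 55.8 times the array median on T3 48 h arrays, against 31.5 to 37.4 on T3 6 h arrays. Of 15 leukocyte probe sets 1 was higher, of the chemokine receptor cxcr4.L, a share of 6.67% beside 7.51%. It passed the filter only through the T3 48 h arrays, so it had to differ. Its levels were 0.63, 0.97 and 0.42 in T3 48 h tails, against -0.83, -0.53 and -0.35 in T3 6 h tails, a difference of 1.24 (SE 0.17, adjusted p = 0.00189). At an unadjusted p under 0.05 in limma, 2 of the list were higher and 3 lower. The 23 leukocyte probe sets summed to 117, 76.9 and 168 on T3 48 h arrays, against 109.9, 118 and 106 on T3 6 h arrays. The erythroid list gave 1 higher and 2 lower calls of 14, 7.14% and 14.3% beside 7.51% and 11.9%. The higher call was 1 of 3 tested probe sets of nfe2.S at 0.60, the others at 0.08 and 0.09 without a call. Both lower calls were of urod.L, an enzyme of haem synthesis, at -0.95 and -0.70. The count of lower calls was 6 on omitting T3 6 h array 2. The sum was 429, 641 and 385 on T3 48 h arrays, against 827, 482 and 777 on T3 6 h arrays.

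The tail was also checked for tissue of the liver, pancreas and gut, of which 35 of 50 probe sets were below the array median on all 9 arrays and 5 passed the filter. A single probe set was called, of ambp.L, a precursor of plasma proteins made in liver, which passed the filter only through the T3 48 h arrays. Its levels were 5.25, 0.89 and 2.60 in T3 48 h tails, against -0.71, -1.37 and -1.03 in T3 6 h tails, with -0.81, -1.35 and -1.01 in vehicle tails, a difference of 3.95 (SE 0.81, adjusted p = 0.00932). T3 48 h array 1 was the highest by more than 2 log2 units, and the other 2 tested probe sets of the gene had differences of -0.73 and -0.41 and were not called. The summed level of the 50 probe sets was 197, 72.3 and 103 times the array median on T3 48 h arrays, against 86.1, 91.1 and 206 on T3 6 h arrays, and the part of such tissue in the ambp.L result was not tested.

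Chromatin genes were higher in 7 of 35 tested probe sets and lower in 2, with a median difference of 0.01. These shares of 20% and 5.71% stood beside 7.51% and 11.9% of all tested probe sets. After quantile normalization or centring 7 were higher and none lower. The methyltransferase ezh2.L, the catalytic subunit of a repressive Polycomb complex, had levels of 2.73, 2.92 and 2.93 in T3 48 h tails, against 1.46, 1.27 and 1.57 in T3 6 h tails, with 1.46, 1.69 and 1.36 in vehicle tails, and rose by 1.43 (SE 0.14, adjusted p = 0.000368). The DNA-bending proteins hmgb3.S and hmgb3.L rose by 0.88 and 0.83. For hmgb2, 1 probe set of hmgb2.L was called at 0.68 and 1 of hmgb2.S at -0.54, while another of hmgb2.L at 0.08 and the others of hmgb2.S at -0.28 and -0.24 were not called. Of 40 tested cell cycle and replication probe sets 1 was higher, the probe set of hmgb2.L counted above, and 2 were lower. These shares of 2.5% and 5% lay below the background of 7.51% and 11.9%. The lower ones were the called probe set of hmgb2.S counted above and stmn1.L, which destabilises microtubules, at -1.41 (SE 0.26, adjusted p = 0.00605). Of 17 tested apoptosis probe sets 2 were higher, cidec.L at 0.80 and bnip3.S, a mitochondrial cell death protein, at 0.49. They made up 11.8% of the list, beside 7.51% of all tested probe sets. None was lower in limma, with 2 lower at an unadjusted p under 0.05.

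Of 25 tested probe sets on a list of the TGF-beta, BMP, FGF and IGF pathways, 5 from 4 genes were higher in limma. This was a share of 20% beside 7.51% of all tested probe sets. None was lower in limma at an adjusted or an unadjusted p under 0.05. The matrix protein tgfbi.L had levels of 5.87, 6.46 and 6.46 in T3 48 h tails, against 5.36, 5.34 and 5.68 in T3 6 h tails (difference 0.81, SE 0.16, adjusted p = 0.00862), and the receptors fgfr1.L and pdgfra.L rose by 0.93 and 0.70. Another probe set of pdgfra.L, at 0.56, was also called, and id2.L, counted above, had the list's largest difference. The list's count of higher calls was 3 on omitting T3 48 h array 2 or T3 6 h array 3 and 2 on omitting T3 6 h array 1. Of 14 Wnt probe sets the antagonist dkk2.L rose by 1.14 (SE 0.16, adjusted p = 0.00168), the target gene axin2.S rose by 0.81 and the antagonist wif1.S fell by 0.89. These were shares of 14.3% higher and 7.14% lower beside 7.51% and 11.9%, and axin2.S passed the filter only through the T3 48 h arrays. Of 10 Hedgehog and Notch probe sets 3 were higher, 30% beside 7.51%, from the Notch target hes4.S at 0.98 and the ligand dll1.L at 0.43.

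**Figure D4:**
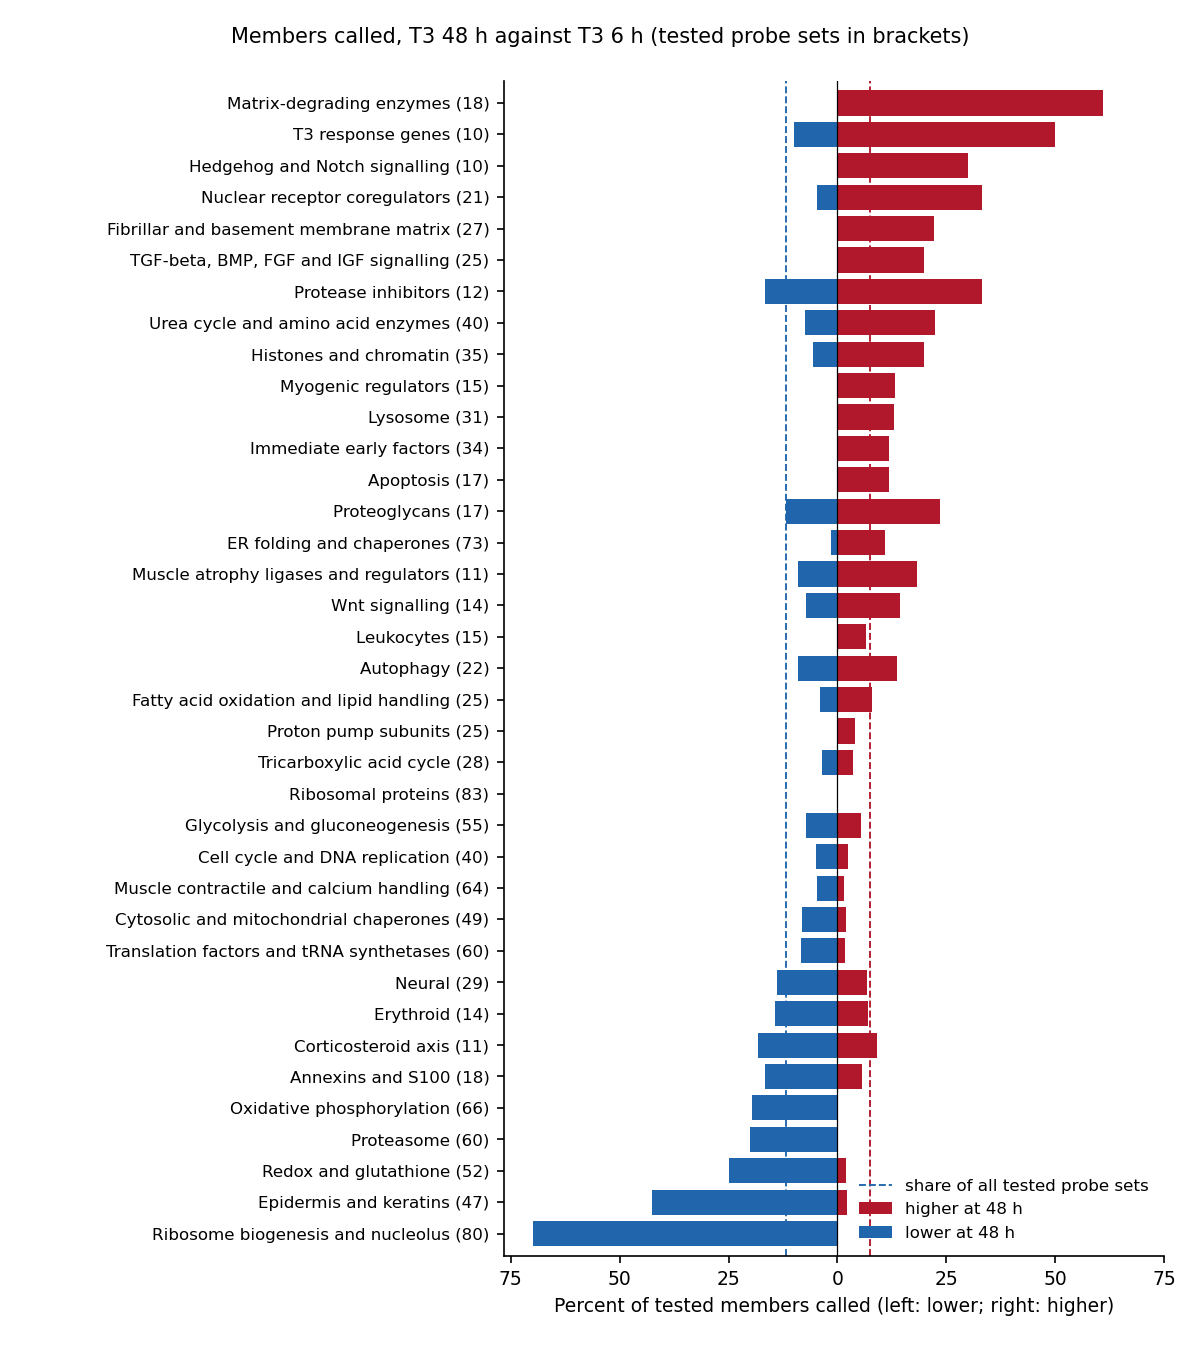
For each gene list with at least 10 tested probe sets (number in brackets), the bar to the right is the percent of tested probe sets called higher and the bar to the left the percent called lower at T3 48 h against T3 6 h. Dashed lines mark the same shares among all 8123 tested probe sets, 7.51% higher and 11.9% lower, and matrix-degrading enzymes (61.1% higher) and ribosome biogenesis (70.0% lower) stand at the ends.

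Since T3 6 h and vehicle were collected at different times, the place of the vehicle mean between the T3 means was described for the called probe sets, without a test. On a scale with T3 6 h at 0 and T3 48 h at 1, the median position of vehicle was 0.31 over the 1578 called probe sets and 0.30 over all tested ones. For 1099 called probe sets, 69.6%, vehicle was nearer to T3 6 h, as it was for 60.9% of all tested ones. It lay within 0.25 of T3 6 h on this scale for 596 called probe sets, 37.8% against 22.3% of all tested, and within 0.25 of T3 48 h for 143, 9.06% against 11.6%. It lay between those zones for 747. Most of the differences of at least 4-fold, 36 of 39, had vehicle nearer to T3 6 h. These include slc15a2.L, ambp.L, anpep.L, krt78.6.L, dpp4.S and timp2.S, which passed the filter only through the T3 48 h arrays. For them vehicle had to lie below the array median, as T3 6 h did, so their position was largely set by the filter. A count without such probe sets was not made.

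**Figure D5:**
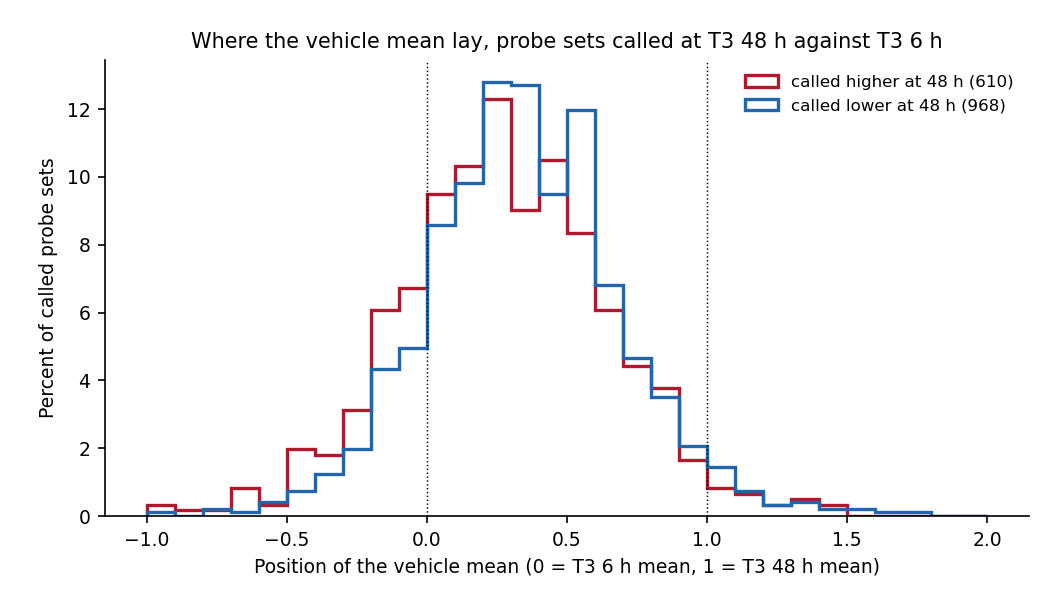
The histogram gives the percent of probe sets called higher (red, 610) or lower (blue, 968) at T3 48 h against T3 6 h by the position of the vehicle mean, where 0 is the T3 6 h mean and 1 the T3 48 h mean. The median position over both was 0.31, so vehicle lay nearer to T3 6 h for most probe sets, and values beyond the axis are drawn in its end bins.

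The genes with the largest differences among those whose vehicle mean lay within 0.25 of T3 48 h on this scale were of mixed kinds. Among higher ones, egln3.L, an oxygen-sensing prolyl hydroxylase, had levels of 2.16, 1.91 and 2.13 in T3 48 h tails, against 0.93, 0.62 and 0.96 in T3 6 h tails, with 1.91, 1.48 and 2.47 in vehicle tails, a difference between the T3 groups of 1.23 (SE 0.22, adjusted p = 0.00552). Of its other probe sets 1 was called, at 0.91, and 1 was not, at 0.34. The actin-binding dbn1.S and the RNA-binding celf2.L rose by 1.02 and 0.96, beside bhmt.L and glul.L above. Among lower ones, cnfn.1.L, a protein of the cornified envelope, had 3.05, 1.61 and 3.03 in T3 48 h tails, against 4.21, 3.93 and 4.73 in T3 6 h tails, with 3.68, 2.53 and 2.63 in vehicle tails, a difference of -1.72 (SE 0.42, adjusted p = 0.0177). The parvalbumin-like ocm4.3.S had 3.46, 4.2 and 4.07 in T3 48 h tails, against 5.41, 4.95 and 5.65 in T3 6 h tails, with 3.37, 3.29 and 4.07 in vehicle tails, and larp4.S, an RNA-binding protein, and LOC100217319 were lower, with differences of -1.22 and -1.18, beside sqstm1.L above. These 10 genes were chosen for a vehicle mean near that of T3 48 h, so their closeness to vehicle is a description.

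Against vehicle at the same time, T3 48 h gave 892 calls among the 8123 tested probe sets, 11% of them, 401 higher (4.94%) and 491 lower (6.04%). Omitting vehicle array 1, 2 or 3 gave 256, 305 or 376 calls, omitting T3 48 h array 2 or 3 gave 291 or 285, and omitting T3 48 h array 1 gave 1912. This comparison shares the T3 48 h arrays with the one above, and a difference in their counts was not tested. Side by side, fap.L differed by 4.54 from T3 6 h and by 4.85 from vehicle, mamdc2.L by 5.55 and 4.96, krt12.4.S by -3.47 and -2.38, and hk1.L by -2.21 and -1.25. Of the ribosome biogenesis probe sets 56 were lower against T3 6 h and 29 against vehicle, with medians of -0.73 and -0.48, and of the proteasome probe sets 12 and 2, with medians of -0.35 and -0.17. Matrix-degrading enzymes gave 11 higher calls against T3 6 h and 10 against vehicle, and epidermal probe sets 20 and 16 lower calls.

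Xenopus laevis carries many genes as a pair of homeologs, marked .L and .S, which a probe set may not fully separate. Both homeologs were tested for 572 genes. Both were called for 49, in the same direction for 45 and in opposite directions for 4, which were rnpep, ppm1b, hmgb2 and slc3a2. The probe set with the largest difference stood for each homeolog, and for hmgb2 the opposite directions rested on 1 probe set each. In 120 pairs 1 homeolog was called, and in 403 neither was. Across the 572 pairs, which share arrays and sequence, the differences of the homeologs correlated with Pearson's r of 0.62. The pairs with the largest mean change were krt12.4, mmp13l and timp2, described above, and ag1. Levels of ag1.S were 1.98, 1.61 and 1.14 in T3 48 h tails, against 3.88, 3.50 and 3.34 in T3 6 h tails, and those of ag1.L were -0.06, -1.41 and -1.19 in T3 48 h tails, against 1.21, 0.93 and 0.57 in T3 6 h tails, differences of -1.99 and -1.79. In the mmp13l pair, the .S probe set rose by 4.2 and the .L probe set by 1.83, and in the timp2 pair the differences were 2.11 and 1.76.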

How the data were processed

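RNA of pooled tails was hybridised to 9 Affymetrix Xenopus laevis arrays, 3 per group. Deposited values were intensities on a linear scale, made with GCRMA per the submitters' processing notes, with no version given there, and each column has a median of 1. The log2 of the deposited intensity was taken here. Of 15611 probe sets 120 controls were left out. GEO's platform annotation gave 1 gene for 9304 of 15491 probe sets, several for 195 and none listed for 5992, and only probe sets with 1 gene were named. Of them, 9227 matched RefSeq gene IDs of Xenopus_laevis_v10.1, used for names.

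All 9 arrays were fitted by group with limma 3.58.1 in R 4.3.3 (eBayes with an intensity trend, two-sided, Benjamini-Hochberg adjustment over the probe sets tested). A probe set was called at an adjusted p under 0.05. Members below the filter take their values from a fit of all 15491 probe sets. The labels do not say whether pools came from separate clutches, so the p-values reflect only how much these pools varied, and 3 arrays a group limit the precision. Alternatives are given in the closing section.

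The comparison, its members and the 44 gene lists were chosen with earlier results of these data known. Genes were named by a rule: the 12 largest called differences each way without overlap between groups, up to 4 called members per list with the largest differences, all T3 response members, the 5 largest each way with vehicle within 0.25 of the difference from T3 48 h, the 4 homeolog pairs with the largest mean change, and genes that a count of 5 or fewer concerns. Other genes named, mmp1.S among them, were picked with their values in view.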

Additional observations from a re-analysis of the deposited data

Results flagged for a closer look

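Set against the shared vehicle arrays, all collected at 48 h, T3 48 h and T3 6 h differed from each other for 1578 of 8123 probe sets. The difference of both contrasts with vehicle is the same contrast as T3 48 h against T3 6 h, since the vehicle arrays cancel. It was tested in limma at an adjusted p under 0.05. With no vehicle tails from 6 h, hormone and time in the container cannot be told apart in it.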

How the results depend on the processing

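The number of probe sets called between T3 48 h and T3 6 h, 1578, was 2677 with array weights, in which T3 48 h array 1 had the lowest weight, 0.377, and ranged from 869 to 2093 with 1 array left out. The number against vehicle, 892, was 1979 with array weights, 494 with only the 6 arrays compared, and ranged from 256 to 1912 with 1 array left out. Both numbers stayed within 1.5 times under quantile normalization, centring, 3 other level filters, an added offset of 0.25 and no intensity trend, and the first also with only the 6 arrays compared (1105). No called difference of a named gene reversed in sign under any alternative run. Of 151 named probe sets called, 92 were kept in all 9 fits without 1 array, 143 under quantile normalization and 143 under centring. Leave-one-out fits without the filter were added after seeing the data, for members below it. Same-numbered arrays of the T3 groups correlated in their deviations from the group means at -0.13, -0.13 and 0.06. Those of T3 48 h and vehicle did so at 0.10, 0.05 and 0.09, and those of T3 6 h and vehicle at -0.02, -0.12 and -0.05. With 3 arrays a group these values cannot settle whether the numbers pair the samples. A fit with the replicate number as a block gave 1364 calls between T3 48 h and T3 6 h and 700 between T3 48 h and vehicle. Values near the array median are limited by signal over background, as the files hold no detection calls.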

Other observations

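Other gene groups gave few calls between T3 48 h and T3 6 h. Of 34 tested probe sets of immediate early transcription factors 4 were higher and none lower in limma, with 2 lower at an unadjusted p under 0.05. The higher calls were a share of 11.8% beside 7.51%, and the median difference was 0.07. Against vehicle at 48 h the list went the other way, with 2 higher and 6 lower in limma and a median of -0.17. The RNA-binding zfp36l1.S had levels of 3.42, 3.11 and 3.11 in T3 48 h tails, against 2.13, 2.57 and 2.39 in T3 6 h tails, a limma difference of 0.85 (SE 0.15, adjusted p = 0.00443), and 1 of 2 probe sets of klf6.L and cebpg.L, transcription factors, rose by 0.79 and 0.51. On the corticosteroid list, 1 of 11 tested probe sets was higher, tsc22d3.L, a gene induced by glucocorticoids, at 0.55, and 2 were lower, both among 3 probe sets of the metallothionein mt4.L. These were shares of 9.09% and 18.2% beside 7.51% and 11.9%. Of 6 clock probe sets, arntl.L was lower, with levels of 0.60, 0.05 and -0.29 in T3 48 h tails, against 0.90, 1.04 and 0.93 in T3 6 h tails and 0.55, 0.07 and 0.58 in vehicle tails, a limma difference of -0.83 (SE 0.22, adjusted p = 0.0272). This share of 16.7% stood beside 11.9%. The list had no lower call on omitting any T3 6 h array, T3 48 h array 2 or T3 48 h array 3. The T3 6 h tails were collected at another time after the start of exposure than the other groups, and the labels give no time of day. Among 18 annexin and S100 probe sets 1 of 5 probe sets of anxa5.S rose by 1.01, the others lying between -0.39 and 0.82 without a call, and 1 of 2 probe sets of anxa7.S, anxa7.L and anxa3.L were lower, with differences of -0.70, -0.53 and -0.43. The shares were 5.56% higher and 16.7% lower beside 7.51% and 11.9%. Of 9 probe sets of skin ion transport the proton pump gene atp12a.L and the sodium pump gene atp1b2.L were lower, with differences of -1.89 and -1.04. This was a share of 22.2% beside 11.9%. Levels of atp12a.L were -0.56, -1.92 and -1.98 in T3 48 h tails, against -0.55, 1.56 and 0.20 in T3 6 h tails. The call of atp12a.L was kept in 5 of the 9 fits that left out an array.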
